A study of Capra hircus with 4 samples.

Results

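The integrin and laminin genes described here are the features of the goat ovary count matrices whose symbol, after removal of a prefix, is a numbered integrin alpha or beta chain, a lettered alpha chain such as ITGAV or ITGAL, or a numbered laminin chain. This rule found 36 of 28944 genes and used no measured value. They comprised 17 integrin alpha chains, 8 integrin beta chains and 11 laminin chains, the last being 5 alpha, 3 beta and 3 gamma chains. Together they took 0.293% of the UMIs of the kept nuclei, where a UMI is a molecular tag that counts a captured transcript once.

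Ovaries of 2 Du'an and 2 Nubian goats were profiled by droplet single-nucleus RNA sequencing (Chromium 3′ v3 chemistry), with 1 library per goat. All goats were about 3 years old and all, controls included, had carried a device releasing progesterone (300 mg) for 17 days to bring them into estrus together. Du'an goats were the monotocous group, with a litter size of 1, and Nubian goats the polytocous group, with litters of at least 3. Breed and litter size were therefore not separable. The labels name no genotype or transgene.

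Integrins are adhesion receptors made of an alpha and a beta chain, and the alpha chain largely sets whether the receptor binds laminin, collagen, fibronectin or a partner on another cell. Laminins are crossed trimers of an alpha, a beta and a gamma chain, and are the main sheet-forming glycoproteins of basement membranes. In the ovary, a basement membrane encloses the granulosa layer of each follicle and keeps it apart from the theca and its vessels, while others surround endothelial tubes and smooth muscle cells.

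The 4 libraries held 40573246 to 71613892 UMIs. Of 48332 deposited nuclei, 44872 passed the filters on UMIs, genes and mitochondrial share, with 54 to 131 barcodes shared by any pair of libraries. A gate on marker genes, which included no integrin or laminin, placed 27381 nuclei (61.0%) in 15 classes named after those markers with the suffix "-like". Of the others, 13200 (29.4%) had no class, 2470 carried markers of more than 1 class and 1821 were granulosa nuclei without a subtype; nuclei in a class held 72.3% of the members' UMIs. Nuclei were gated on these marker lists, so a list standing highest in its own class follows from the gate and is no check of the names. The cumulus list as such was not used by the gate, but CHST8, 1 of its 5 genes, is also in the granulosa list that the gate used for both classes compared next. The cumulus list was about as high in cycling granulosa-like as in cumulus-like nuclei. Lists for B and Schwann cells were not among the classes of the gate, so it cannot show whether such cells were present. CPM here means UMIs of a gene per 1000000 UMIs of a class in a goat. Mural-like nuclei numbered 3 in Du'an replicate 1, epithelial-like and ciliated-like nuclei 11 each in that goat, and pericyte-like nuclei 15 in Du'an replicate 2, and those sums were left out. Progenitor-like nuclei were gated on ENPP1, ANKH, IGFBP5, CDK14 and ARNT2 and are named after the study's common progenitor granulosa cells. These markers summed to 3760 to 5458 CPM there, to 1904 to 4403 CPM in stromal-like, 653 to 5288 CPM in theca-like and 1453 to 5121 CPM in epithelial-like nuclei. Granulosa markers were at 1327 to 1487 CPM in progenitor-like nuclei, against 5043 to 9660 CPM in the other granulosa subtypes and up to 1813 CPM in theca-like, 1277 CPM in smooth muscle-like and 1276 CPM in stromal-like nuclei. The progenitor-like class is therefore called a granulosa subtype by its gate only. Granulosa levels in theca-like, smooth muscle-like and stromal-like nuclei were capped by the gate. It left out nuclei of these classes whose ratio of observed to expected granulosa UMIs was 1 or more. Progenitor-like nuclei had no such cap.

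Granulosa transcripts were counted in all classes. FSHR, the follicle-stimulating hormone receptor of granulosa cells, averaged 3747 CPM in cumulus-like nuclei and still 146 CPM in macrophage-like nuclei. It belongs to the granulosa list, which the gate required in cumulus-like nuclei and capped in macrophage-like nuclei. The summed mural markers had the same order of goats in macrophage-like nuclei (75.9, 606, 1649 and 172 CPM) as in T or natural killer-like nuclei (251, 1164, 1911 and 450 CPM), where, as in all such series below, values stand in the order Du'an replicate 1, Du'an replicate 2, Nubian replicate 1 and Nubian replicate 2. Those orders follow the numbers of mural-like nuclei, which were 3, 1291, 4520 and 388. The source of these transcripts and their part in the members' levels were not tested. Levels are compared between classes and goats and not between genes, since these 3′ counts were not divided by length.

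Goat-wise UMI sums of each class were set against the average of the other 14 classes by edgeR's quasi-likelihood test, goats being blocked, and a gene was called at a Benjamini-Hochberg adjusted p under 0.05. ITGA10 and LAMB3 did not pass the filter on low counts, so 34 members entered this fit among 12955 genes. Of their 510 combinations with a class, 136 were called higher and 93 lower. Over the classes, 11.8% to 47.1% of the members were called higher and 0 to 47.1% lower, against 5.16% to 30.3% and 1.01% to 27.2% of all genes. Each of the 34 was called higher in at least 1 class, from 1 class for ITGA2B and LAMB4 to 8 for LAMB1 and 9 for LAMA1. The share of all genes with such a call was not counted. The filter on low counts took account of class, so a gene could enter through the class where it was high. Levels ranged widely over classes for most members. Highest over lowest class mean was 3.02-fold for ITGB1, the beta chain shared by the largest number of integrins, and 365-fold for LAMA3. Log2 fold changes of members at 0 in some classes are fitted values that depend on the prior count and are not bounds.

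**Figure D1:**
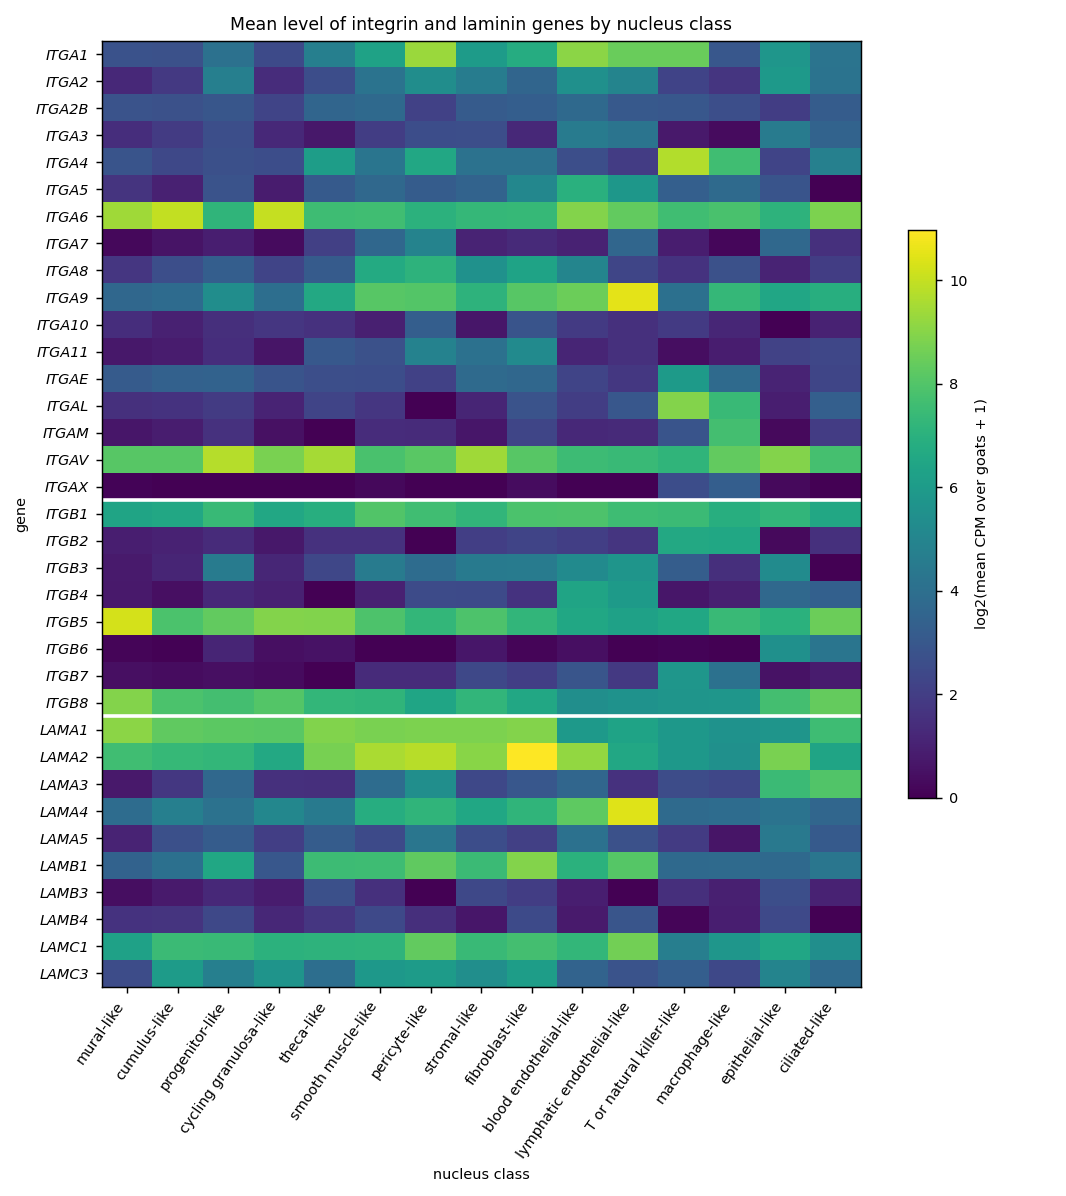
Mean level of the integrin and laminin genes shown (rows, integrin alpha, integrin beta and laminin chains separated by white lines) in the 15 nucleus classes (columns), as log2(mean CPM over goats + 1). ITGB1 is bright in every column, whereas ITGAL and ITGB2 are bright in the leukocyte columns and ITGB6 in the epithelial-like and ciliated-like columns.

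ITGB8 and LAMA1 were called higher in all 4 granulosa subtypes, ITGA6 in all but progenitor-like and ITGB5 in all but cumulus-like nuclei. None of these genes was particular to granulosa nuclei, as LAMA1 was called higher in 9 classes, ITGB8 also in ciliated-like, ITGA6 in blood endothelial-like and ITGB5 in theca-like nuclei. ITGA6, an alpha chain that binds laminin, was at 1090, 932, 592 and 1340 CPM in cumulus-like nuclei and at 1065, 1075, 659 and 1330 CPM in cycling granulosa-like nuclei. These values overlapped with each other but lay above the 114 to 172 CPM of progenitor-like nuclei. The log2 fold change of ITGA6 over the average of all other classes was 2.12 ± 0.174 (SE, adjusted p = 9.22e-14) in cumulus-like and 2.10 ± 0.174 (adjusted p = 4.01e-14) in cycling granulosa-like nuclei. In nuclei thinned to 1000 UMIs, a median of 52.7% of cumulus-like nuclei per goat carried an ITGA6 UMI (80.5% unthinned), against 14.8% of macrophage-like nuclei (31.5% unthinned), whose median depth was 2733 UMIs against 4752.5.

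In cumulus-like nuclei 6 members were higher and 10 lower, against 20.6% and 14.7% of all genes (35.3% in either direction). LAMC3, a laminin gamma chain, stood at 66.4, 81.0, 64.3 and 46.1 CPM there (log2 fold change 2.02 ± 0.248, adjusted p = 6.76e-09). LAMA1, the alpha chain of the laminin first formed in embryos, was at 365, 286, 365 and 253 CPM (0.89 ± 0.219, adjusted p = 9.94e-04). ITGB8, a partner of ITGAV, was at 309, 107, 109 and 390 CPM. Its log2 fold change of 0.88 ± 0.239 (adjusted p = 0.00308) lost its call without Du'an replicate 1 (0.65, adjusted p = 0.0825) or Nubian replicate 2 (0.55, adjusted p = 0.148), the goats with the higher values. LAMC1 (0.72, adjusted p = 0.00226) was called as well.

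Mural-like nuclei were gated on CYP19A1 (aromatase) and other markers, and are named after the granulosa cells that line the follicle wall. In this class 4 members were higher and 13 lower, against 18.5% and 14.8% of all genes (33.3% in either direction). ITGB5, the beta chain of a vitronectin receptor, reached 1231, 1133 and 1359 CPM in the 3 goats with such nuclei, above every goat of the next class. The log2 fold change was 3.21 ± 0.231 (adjusted p = 2.28e-15). ITGB8 stood at 436, 366 and 670 CPM (2.31 ± 0.237, adjusted p = 6.93e-11) and LAMA1 at 530, 515 and 557 CPM (1.91 ± 0.228, adjusted p = 3.36e-09). LAMA1 was highest in mural-like nuclei only by the mean over goats, since in none of the 3 goats was that class its highest. ITGA6 was the fourth, at 813, 574 and 676 CPM (1.63 ± 0.207, adjusted p = 1.57e-08).

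Cycling granulosa-like nuclei had 7 members higher and 12 lower, against 21.4% and 17.5% of all genes (38.9% in either direction). LAMC3 was at 75.7, 71.8, 15.3 and 38.2 CPM (log2 fold change 1.52 ± 0.284, adjusted p = 2.31e-05) and ITGB8 at 270, 208, 261 and 304 CPM (1.11 ± 0.234, adjusted p = 1.42e-04). ITGB5 ranged from 150 CPM in Du'an replicate 1 over 291 and 444 CPM to 1049 CPM in Nubian replicate 1 (1.25 ± 0.236, adjusted p = 2.79e-05). The summed mural markers of the same nuclei were 782, 3139, 11413 and 2298 CPM, which is the same order of goats, and their part in the ITGB5 values was not tested.

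Progenitor-like nuclei had 9 members higher and 5 lower, against 12.9% and 3.32% of all genes (16.2% in either direction). ITGAV, the alpha chain of the vitronectin receptors and of integrins that activate latent TGF-beta, was at 754, 1156, 601 and 932 CPM (log2 fold change 1.60 ± 0.225, adjusted p = 3.25e-07). ITGB3, a partner of ITGAV, was at 10.7, 25.7, 44.3 and 8.91 CPM (1.78 ± 0.377, adjusted p = 4.38e-04), and ITGA2, a collagen receptor chain, at 8.68, 19.9, 28.9 and 45.5 CPM (1.38 ± 0.379, adjusted p = 0.00708). The goats differed several-fold in both. LAMB1, the most widely used laminin beta chain, was at 109, 77.1, 53.0 and 131 CPM (0.95 ± 0.254, adjusted p = 0.00566). That call was lost when classes were assigned by likelihood (0.16, adjusted p = 0.703), with no filter on nuclei (0.31, adjusted p = 0.579), and without Du'an replicate 1 (0.82, adjusted p = 0.105) or Nubian replicate 2 (0.70, adjusted p = 0.200).

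A separate fit compared each granulosa subtype with the mean of the other 3, over 15 sums, 12671 genes and 27 members. Progenitor-like nuclei, whose granulosa markers were near the level of theca-like nuclei, had 12 members higher and 2 lower, against 20.8% and 18.3% of all genes. ITGB3 was at 8.91 CPM or more in each progenitor-like sum and at 2.53 CPM or less in each sum of the other subtypes (log2 fold change 4.48 ± 0.376, adjusted p = 1.20e-06). ITGA2 (3.78 ± 0.311, adjusted p = 1.06e-06) and LAMB1 (3.04 ± 0.254, adjusted p = 1.20e-06) did not overlap with the other subtypes either, LAMB1 being at 4.09 to 18.8 CPM in those. LAMA3, an epithelial laminin chain, was at 3.57, 21.0, 3.08 and 20.3 CPM in progenitor-like nuclei (2.65 ± 0.469, adjusted p = 5.90e-04). ITGA6 went the other way, with a log2 fold change of -2.65 (adjusted p = 1.23e-06), and LAMA4 was lower by a smaller margin (-0.56, adjusted p = 0.0443). ITGB1 was higher (0.79, adjusted p = 3.15e-05), as were ITGA1, ITGA3, ITGA5, ITGA8, ITGA9, ITGAV and LAMA5.

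Mural-like nuclei had 3 members higher in that fit and 6 lower, against 10.2% and 12.2% of all genes. ITGB5 (log2 fold change 2.09 ± 0.307, adjusted p = 4.53e-04), ITGB8 (1.33 ± 0.253, adjusted p = 0.00235) and LAMA1 (1.09 ± 0.227, adjusted p = 0.00421) were the higher ones. LAMC3, at 6.15, 5.60 and 2.72 CPM, was lower (-2.86, adjusted p = 5.17e-04) and did not overlap with any other subtype. LAMC1 (-0.85, adjusted p = 0.0135), LAMA5, ITGA2 and ITGB3 were lower too.

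Cumulus-like nuclei had 5 members higher and 3 lower, against 9.06% and 8.07% of all genes. LAMC3 (log2 fold change 1.80 ± 0.280, adjusted p = 0.00111) and ITGA6 (1.00 ± 0.181, adjusted p = 0.00275) were higher, as was LAMC1, the most widely used gamma chain, at 166, 166, 216 and 172 CPM (0.56 ± 0.177, adjusted p = 0.0455). The LAMC1 call was lost without any of the goats (0.36 to 0.65, adjusted p = 0.0529 to 0.134) and in 4 other alternatives. LAMA5 was also higher, and ITGB5, ITGAV and ITGA9 were lower. Cycling granulosa-like nuclei had 3 members higher and 4 lower, against 12.9% and 8.90%. ITGA6 (1.10 ± 0.179, adjusted p = 6.23e-04), LAMA4 at 45.0, 20.4, 27.5 and 37.6 CPM (0.82 ± 0.182, adjusted p = 0.00603) and LAMC3 (1.19 ± 0.315, adjusted p = 0.0162) were higher. LAMC3 lost its call without Du'an replicate 1 (0.94, adjusted p = 0.101), Du'an replicate 2 (1.08, adjusted p = 0.128) or Nubian replicate 2 (1.01, adjusted p = 0.0926). LAMB1, ITGA5, LAMA2 and ITGA1 were lower in cycling granulosa-like nuclei. Both ITGA6 calls are against a mean that includes progenitor-like nuclei, where ITGA6 was at 114 to 172 CPM. ITGA6 overlapped between cumulus-like (592 to 1340 CPM), cycling granulosa-like (659 to 1330 CPM) and mural-like nuclei (574 to 813 CPM). The 15 lower calls of this fit fell to 9 without the goat block and to 8 without Du'an replicate 2 or Nubian replicate 2.

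**Figure D2:**
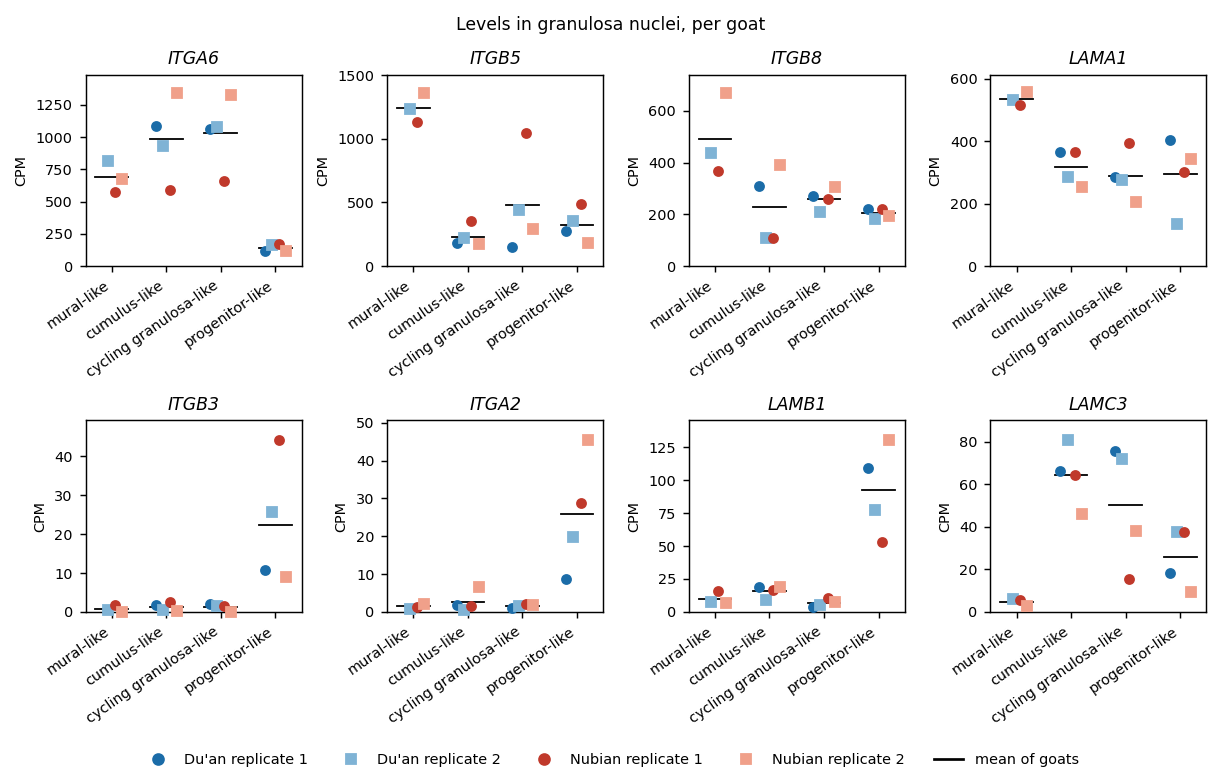
CPM of 8 members in the 4 granulosa subtypes (points, 1 per goat, coloured by goat; black line, mean of goats; linear axes from 0). ITGB5 stands highest in the 3 mural-like sums, ITGA6 is lowest in progenitor-like nuclei, and ITGB3, ITGA2 and LAMB1 are highest in progenitor-like nuclei.

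Theca-like nuclei numbered 249 and were gated on markers of the steroid-making cells outside the follicular basement membrane. They held a median of 6 UMIs of those markers against 9 of mural markers. In this class 5 members were higher and 0 lower, against 5.43% and 1.87% of all genes (7.29% in either direction). The goats disagreed here. ITGA4, a receptor chain for fibronectin and VCAM1, was at 1.75, 46.0, 116 and 106 CPM (log2 fold change 2.03 ± 0.406, adjusted p = 5.93e-04), a call lost without Nubian replicate 1 (0.96, adjusted p = 0.393). LAMB1 was at 138, 386, 40.7 and 158 CPM (1.86 ± 0.272, adjusted p = 3.31e-06) and lost its call without Du'an replicate 2 (0.85, adjusted p = 0.136). LAMA1 was at 201, 585, 666 and 431 CPM (1.30 ± 0.225, adjusted p = 7.58e-05) and kept its call in all 11 alternatives. ITGAV, at 1405, 406, 370 and 703 CPM (1.22 ± 0.250, adjusted p = 8.40e-04), lost its call without Du'an replicate 1 (0.50, adjusted p = 0.402) and had the opposite sign when classes were assigned by likelihood (-0.34, adjusted p = 0.365). ITGB5 was the fifth, at 362, 386, 1056 and 96.7 CPM (1.16, adjusted p = 0.00170). Summed mural markers in theca-like nuclei ran from 788 to 13361 CPM with Nubian replicate 1 highest, as for ITGB5. Progenitor markers ran from 653 to 5288 CPM with Du'an replicate 1 highest, as for ITGAV, while the theca list itself summed to 748 to 1847 CPM. The part of mural and progenitor markers in these levels was not tested.

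Endothelial nuclei of both vessel types shared high ITGB4, ITGA5, ITGA1, ITGA9 and LAMA4. In blood endothelial-like nuclei 16 members were higher and 5 lower, against 22.2% and 12.1% of all genes (34.3% in either direction), and in lymphatic endothelial-like nuclei 13 were higher and 8 lower, against 16.5% and 9.96% (26.4% in either direction). LAMA4, the alpha chain of vessel wall laminin, was at 1868, 1293, 1245 and 1160 CPM in lymphatic endothelial-like nuclei, far above every goat of any other class. The log2 fold change was 5.30 ± 0.181 (adjusted p = 1.41e-28). ITGA9, a chain that binds tenascin and is needed for lymphatic valves, was at 1631, 1269, 1853 and 1113 CPM (4.25 ± 0.170, adjusted p = 5.13e-26). After thinning to 1000 UMIs, a median of 57.1% of lymphatic endothelial-like nuclei per goat carried a LAMA4 UMI (78.5% unthinned, median depth 1828 UMIs), against 0.706% of macrophage-like nuclei (3.88% unthinned).

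ITGB4, the partner of ITGA6, was at 68.6, 85.1, 44.5 and 51.0 CPM in lymphatic endothelial-like nuclei (log2 fold change 4.96 ± 0.276, adjusted p = 8.44e-20). In blood endothelial-like nuclei it was at 59.5, 71.7, 103 and 97.1 CPM (5.34 ± 0.239, adjusted p = 2.91e-23), so that the goats overlapped between the vessel types. The third highest class, epithelial-like nuclei, averaged 12.2 CPM. ITGA5, the main fibronectin receptor chain, was at 107, 124, 116 and 151 CPM in blood endothelial-like nuclei (4.77 ± 0.207, adjusted p = 4.72e-24) and at 66.4, 63.4, 46.1 and 41.4 CPM in lymphatic endothelial-like nuclei (3.50 ± 0.266, adjusted p = 2.34e-15). FN1, the gene for fibronectin itself, was at 1242 to 1379 CPM in blood endothelial-like nuclei (4.93 ± 0.316, adjusted p = 2.72e-18).

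ITGA1, a collagen receptor chain, was at 620, 578, 365 and 609 CPM in blood endothelial-like nuclei (log2 fold change 3.85 ± 0.208, adjusted p = 4.52e-21), with Nubian replicate 1 well below the others. LAMA4 was at 413, 192, 329 and 288 CPM there (2.91 ± 0.211, adjusted p = 2.34e-16). Summed markers of lymphatic endothelium were 186 to 259 CPM in blood endothelial-like nuclei against 9540 to 16687 CPM in lymphatic endothelial-like nuclei. Markers of blood endothelium, by contrast, were at 1383 to 1700 CPM in the lymphatic class against 4237 to 5238 CPM in their own.

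Between the vessel types, 4 members were higher in blood endothelial-like nuclei and 6 in lymphatic endothelial-like nuclei, against 7.36% and 6.75% of all genes. LAMA4 had a log2 fold change, blood over lymphatic, of -2.23 ± 0.354 (adjusted p = 3.62e-06), and ITGA9 of -1.97 ± 0.334 (adjusted p = 1.16e-05), with ITGA9 at 319 to 415 CPM in blood endothelial-like nuclei. LAMC1 was at 440, 337, 454 and 379 CPM in lymphatic against 164, 135, 180 and 135 CPM in blood endothelial-like nuclei (-1.39 ± 0.287, adjusted p = 2.78e-04). None of these 3 genes overlapped between the types in any goat. ITGA7, a laminin receptor chain best known from muscle, was at 22.1, 6.34, 6.59 and 9.56 CPM in lymphatic and at 0 to 2.90 CPM in blood endothelial-like nuclei (-3.41 ± 0.926, adjusted p = 0.00646), a call lost without Du'an replicate 1 (-2.98, adjusted p = 0.0724). LAMB1 (-1.10, adjusted p = 0.0350) and LAMB4 (-2.79, adjusted p = 0.0381) were the other members higher in the lymphatic type. The stromal marker list summed to 2380 to 5006 CPM in lymphatic and 1438 to 1930 CPM in blood endothelial-like nuclei. Most of these sums came from the list's genes TCF21, TSHZ2 and NR2F2. Its remaining genes were a small part of them, PDGFRA averaging 11.0 and 8.48 CPM and DCN 10.8 and 42.2 CPM in these 2 classes. In stromal-like nuclei PDGFRA and DCN averaged 549 and 298 CPM. The part of the listed genes was not tested.

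In the other direction, LAMA2, the alpha chain of muscle and nerve laminin, was at 219, 915, 284 and 894 CPM in blood endothelial-like nuclei and at 79.7, 57.1, 48.6 and 191 CPM in lymphatic ones (log2 fold change 2.64 ± 0.596, adjusted p = 8.52e-04). ITGA8, a nephronectin receptor chain, was at 50.6, 18.4, 36.5 and 18.8 CPM against 0, 2.72, 9.88 and 3.19 CPM (2.79 ± 0.666, adjusted p = 0.00166). All goats were higher in the blood type for both genes. Smooth muscle markers were at 266 to 531 CPM in blood and 125 to 305 CPM in lymphatic endothelial-like nuclei, against 7212 to 8071 CPM in smooth muscle-like nuclei, and their part was not tested. ITGA5 differed by 1.18 ± 0.308 (adjusted p = 0.00456), a call lost without Nubian replicate 2 (0.99, adjusted p = 0.0673). LAMA5, a widely used alpha chain of mature basement membranes, was at 17.8, 10.4, 29.0 and 7.25 CPM against 4.43, 4.53, 4.12 and 9.56 CPM (1.64 ± 0.509, adjusted p = 0.0201). The LAMA5 call was lost without the goat block (1.66, adjusted p = 0.0590). It was also lost without Du'an replicate 1 (1.54, adjusted p = 0.111), Du'an replicate 2 (1.83, adjusted p = 0.0587) or Nubian replicate 1 (1.05, adjusted p = 0.257). Without Du'an replicate 1, the 10 calls of this comparison fell to 6.

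**Figure D3:**
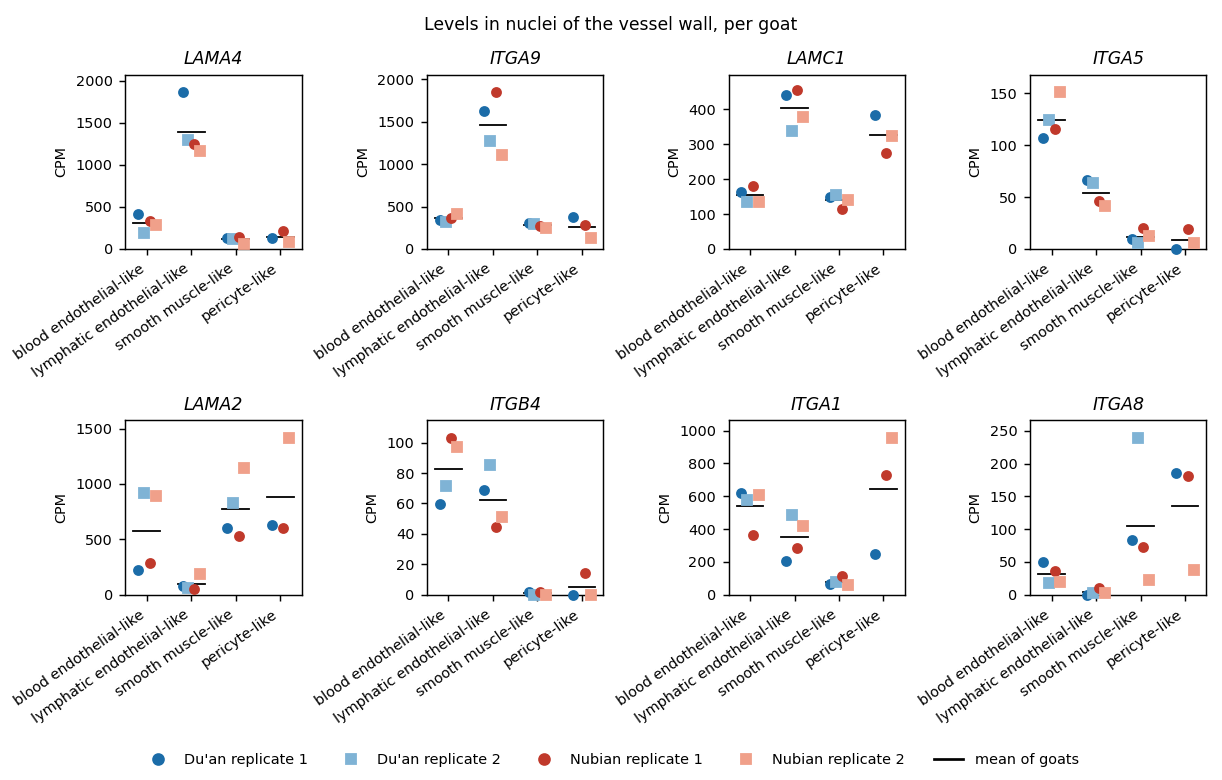
CPM of 8 members in blood endothelial-like, lymphatic endothelial-like, smooth muscle-like and pericyte-like nuclei (points, 1 per goat; black line, mean of goats; linear axes from 0). LAMA4, ITGA9 and LAMC1 stand higher in every lymphatic than in any blood endothelial-like sum, and ITGA1 is lowest in smooth muscle-like nuclei.

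Among members at a mean of 10 CPM or more, ITGA8, ITGA7, LAMB1 and ITGB3 had the largest called log2 fold changes in smooth muscle-like nuclei. In pericyte-like nuclei these were ITGA7, ITGA1, ITGA8 and ITGA11. Smooth muscle-like nuclei had 11 members higher and 0 lower, against 11.0% and 1.77% of all genes (12.7% in either direction). ITGA8 was at 83.3, 239, 72.9 and 23.0 CPM (log2 fold change 3.57 ± 0.325, adjusted p = 3.05e-12), and LAMB1 at 190, 237, 137 and 183 CPM (1.86 ± 0.242, adjusted p = 4.66e-08). ITGA8 varied over the goats and LAMB1 much less. ITGA7 was at 22.6, 16.9, 4.86 and 3.00 CPM (2.68 ± 0.512, adjusted p = 9.31e-05), but its sign reversed when classes were assigned by likelihood (-0.86, adjusted p = 0.436). ITGB3 was at 17.6, 33.8, 28.7 and 11.0 CPM (1.77 ± 0.420, adjusted p = 0.00190). ITGB1 had its highest mean here, at 251, 239, 367 and 164 CPM (0.80, adjusted p = 7.07e-05), and its lowest in mural-like nuclei, at 84.4 ± 11.2 CPM (SD, n = 3).

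Pericyte-like nuclei came from 3 goats and numbered 24, 63 and 31 in them. In this class 12 members were higher and 1 lower, against 5.16% and 1.26% of all genes (6.42% in either direction). ITGA1 was at 251 CPM in Du'an replicate 1 and at 732 and 957 CPM in the Nubian goats (log2 fold change 3.83 ± 0.270, adjusted p = 3.14e-15), and ITGA8 at 186, 181 and 38.3 CPM (3.72 ± 0.487, adjusted p = 1.54e-07). ITGA7 was at 32.8, 42.8 and 10.9 CPM (4.12 ± 0.775, adjusted p = 1.67e-04) and lost its call without Nubian replicate 1 (3.29, adjusted p = 0.118). ITGA11, a receptor chain for fibrillar collagen, was at 32.8, 23.8 and 27.3 CPM (3.26 ± 0.784, adjusted p = 0.00431) and lost its call without Nubian replicate 2 (2.90, adjusted p = 0.0666). Smooth muscle markers (2603 to 3380 CPM) and fibroblast markers (552 to 1340 CPM) were also present in these sums, and their part was not tested; markers of blood endothelium were at 120 to 295 CPM.

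Against each other, smooth muscle-like and pericyte-like nuclei differed in 1 member, lower in the former, against 0.178% of all genes higher there, 0.440% lower and 0.618% in either direction. ITGA1 was at 66.3, 78.9, 114 and 58.9 CPM in smooth muscle-like nuclei, below each pericyte-like sum, with a log2 fold change of -2.85 ± 0.426 (adjusted p = 4.88e-05). This call held in every alternative. The number of members called was 2 with DESeq2, with RLE size factors and without the filter on low counts, where ITGA4 was added, and 13 when classes were assigned by likelihood.

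LAMB1, LAMA2 and LAMC3 had their highest class mean in fibroblast-like nuclei. There 14 members were higher and 1 lower, against 15.1% and 4.17% of all genes (19.3% in either direction). LAMA2 was at 1786, 2417, 774 and 3066 CPM (log2 fold change 3.11 ± 0.301, adjusted p = 9.42e-12), and this was its highest class in each of the 4 goats. LAMB1 was at 558, 500, 390 and 496 CPM (3.31 ± 0.211, adjusted p = 2.09e-17), also highest in each goat. Among integrins, ITGA11 was at 30.8, 15.9, 79.7 and 20.6 CPM (3.97 ± 0.393, adjusted p = 2.06e-11), with Nubian replicate 1 highest, and ITGA8 at 88.8, 74.2, 116 and 43.2 CPM (3.20 ± 0.332, adjusted p = 7.66e-11). LAMC3 averaged 67.8 ± 12.7 CPM (SD, n = 4), which overlapped with its level in cumulus-like nuclei. Thinned to 1000 UMIs, a median of 62.5% of fibroblast-like nuclei per goat carried a LAMA2 UMI (76.5% unthinned, median depth 1628 UMIs), against 4.42% of macrophage-like nuclei (12.6% unthinned).

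Stromal-like nuclei had 7 members higher and 1 lower, against 6.93% and 1.01% of all genes (7.94% in either direction), and the goats were far apart. LAMB1 was at 224, 113, 213 and 167 CPM (log2 fold change 1.76 ± 0.267, adjusted p = 4.60e-06) and kept its call in all 11 alternatives. ITGA8 was at 123, 37.6, 22.2 and 3.53 CPM (2.10 ± 0.466, adjusted p = 0.00151) and ITGA11 at 42.0, 0, 22.2 and 0 CPM (2.19 ± 0.657, adjusted p = 0.0268). Du'an replicate 1 was highest for both, and without it neither was called (1.05, adjusted p = 0.446, and 1.00, adjusted p = 0.759), nor when classes were assigned by likelihood (0.35, adjusted p = 0.759, and 0.38, adjusted p = 0.869). ITGA11 was not called without Nubian replicate 1 either (1.93, adjusted p = 0.150). ITGB3 was at 28.0, 26.3, 17.7 and 11.8 CPM (1.71 ± 0.551, adjusted p = 0.0445). It lost its call without any of the goats (adjusted p = 0.0522 to 0.243) and without the goat block (adjusted p = 0.126).

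Both leukocyte classes were higher for ITGB2 and its partners and lower for 7 of the 10 tested laminin chains, namely LAMA1, LAMA2, LAMA4, LAMA5, LAMB1, LAMC1 and LAMC3. Some of their transcripts were still counted, with LAMA1 at 32.4 to 80.7 CPM and LAMA2 at 19.0 to 73.9 CPM in macrophage-like nuclei. In T or natural killer-like nuclei they were at 46.0 to 78.3 and 52.5 to 61.0 CPM. In both classes LAMA1 was highest in Nubian replicate 1, as were the summed mural markers, and LAMA2 in Nubian replicate 2. Whether these transcripts came from the leukocytes was not tested. ITGB2 is the beta chain of leukocytes and pairs with ITGAL, ITGAM and ITGAX, the chains of receptors for ICAM proteins and complement fragments. In macrophage-like nuclei 9 members were higher and 11 lower, against 30.3% and 25.8% of all genes (56.1% in either direction), and in T or natural killer-like nuclei 8 were higher and 16 lower, against 29.5% and 27.2% (56.7% in either direction). ITGB2 was at 88.6, 80.4, 77.2 and 119 CPM in macrophage-like nuclei (log2 fold change 5.79 ± 0.245, adjusted p = 8.27e-25) and at 69.6, 121, 113 and 92.0 CPM in T or natural killer-like nuclei (5.90 ± 0.231, adjusted p = 4.66e-26). The goats overlapped between these classes, and the third highest class averaged 3.83 CPM.

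ITGAM was at 193, 228, 216 and 184 CPM in macrophage-like nuclei (log2 fold change 7.52 ± 0.256, adjusted p = 6.15e-28) and at 18.2 CPM or less in each sum of T or natural killer-like nuclei. In thinned nuclei, a median of 16.7% of macrophage-like nuclei per goat had an ITGAM UMI (41.9% unthinned), against 0.317% of T or natural killer-like (0.863% unthinned, median depth 2383 UMIs) and 0.0817% of cumulus-like nuclei. ITGAL went the other way. It was at 599, 618, 473 and 261 CPM in T or natural killer-like nuclei (7.42 ± 0.209, adjusted p = 2.00e-31) and at 155, 291, 117 and 135 CPM in macrophage-like nuclei (5.82 ± 0.245, adjusted p = 7.47e-25). The goats overlapped, although each had more ITGAL in its lymphocyte class. T or natural killer markers were at 12.7 to 67.5 CPM in macrophage-like nuclei, against 6638 to 7858 CPM in their own class. B cell markers summed to 455, 993, 324 and 343 CPM in macrophage-like nuclei, their highest class by the mean. In T or natural killer-like nuclei they summed to 520, 297, 422 and 273 CPM. Only 1 of the 5 genes averaged over 10 CPM in any class, and 2 were at 0 in macrophage-like nuclei, so the sum rests mainly on 1 gene. In macrophage-like nuclei its order of goats was that of ITGAL, with Du'an replicate 2 highest as for ITGA4. The part of these markers in the ITGAL and ITGA4 calls was not tested. ITGAX had its highest mean in macrophage-like nuclei, at 3.16, 15.1, 5.15 and 11.8 CPM (6.08, adjusted p = 2.34e-09).

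ITGA4, which guides lymphocytes across vessel walls, was at 1002, 1061, 722 and 554 CPM in T or natural killer-like nuclei (log2 fold change 6.17 ± 0.227, adjusted p = 7.94e-28) and at 130, 386, 161 and 107 CPM in macrophage-like nuclei (3.79 ± 0.273, adjusted p = 1.13e-16). All goats were higher in the lymphocyte class. ITGB7, a partner of ITGA4 and ITGAE, was at 45.4, 67.7, 54.5 and 44.9 CPM in T or natural killer-like nuclei (5.42 ± 0.332, adjusted p = 1.74e-18).

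Between the leukocyte classes, 5 members were higher in macrophage-like and 7 in T or natural killer-like nuclei, against 16.7% and 13.6% of all genes. ITGAM (log2 fold change, macrophage over T or natural killer, 5.35 ± 0.482, adjusted p = 1.80e-12) and ITGA9 at 149, 150, 225 and 108 against 12.1, 15.3, 24.8 and 10.7 CPM (3.26 ± 0.396, adjusted p = 3.25e-09) did not overlap. ITGAV was at 345, 329, 319 and 294 CPM in macrophage-like and 119 to 157 CPM in T or natural killer-like nuclei (1.20 ± 0.373, adjusted p = 0.0106). That call was lost with no filter on nuclei (0.86, adjusted p = 0.0748) and without Du'an replicate 2 (1.23, adjusted p = 0.0632). ITGB5, at 133, 205, 245 and 108 CPM (1.05 ± 0.388, adjusted p = 0.0338), lost its call without the goat block (0.92, adjusted p = 0.350). It was also lost with classes by likelihood (0.70, adjusted p = 0.0579) and without each goat but Nubian replicate 1 (0.90 to 1.20, adjusted p = 0.0702 to 0.139). Mural markers in macrophage-like nuclei were, like ITGB5, higher in Du'an replicate 2 and Nubian replicate 1 (606 and 1649 CPM) than in the other goats, and their part was not tested. LAMC1 was the fifth (1.03, adjusted p = 0.0136).

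In the lymphocyte direction, ITGA1, known from tissue-resident T cells, was at 330, 295, 352 and 435 CPM against 0, 5.74, 15.4 and 6.43 CPM in macrophage-like nuclei (log2 fold change -5.62 ± 0.516, adjusted p = 1.41e-12). ITGAE, the chain by which resident T cells hold E-cadherin, was at 66.6, 58.4, 42.6 and 81.3 CPM against 3.16, 13.6, 5.15 and 30.0 CPM (-2.12 ± 0.480, adjusted p = 4.09e-04). Neither overlapped between the classes. ITGA4 (-2.23 ± 0.426, adjusted p = 3.71e-05) and ITGB7 (-1.56 ± 0.464, adjusted p = 0.00761) were the next, and the ITGB7 call was lost without Nubian replicate 1 (-1.40, adjusted p = 0.0849). ITGAL (-1.49, adjusted p = 3.04e-04), ITGB1 (-0.61, adjusted p = 0.0334) and ITGB3 (-2.09, adjusted p = 0.0365) completed the 7. The 12 calls of this comparison fell to 7 without Du'an replicate 2, the goat with 1508 of the 2243 T or natural killer-like nuclei.

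**Figure D4:**
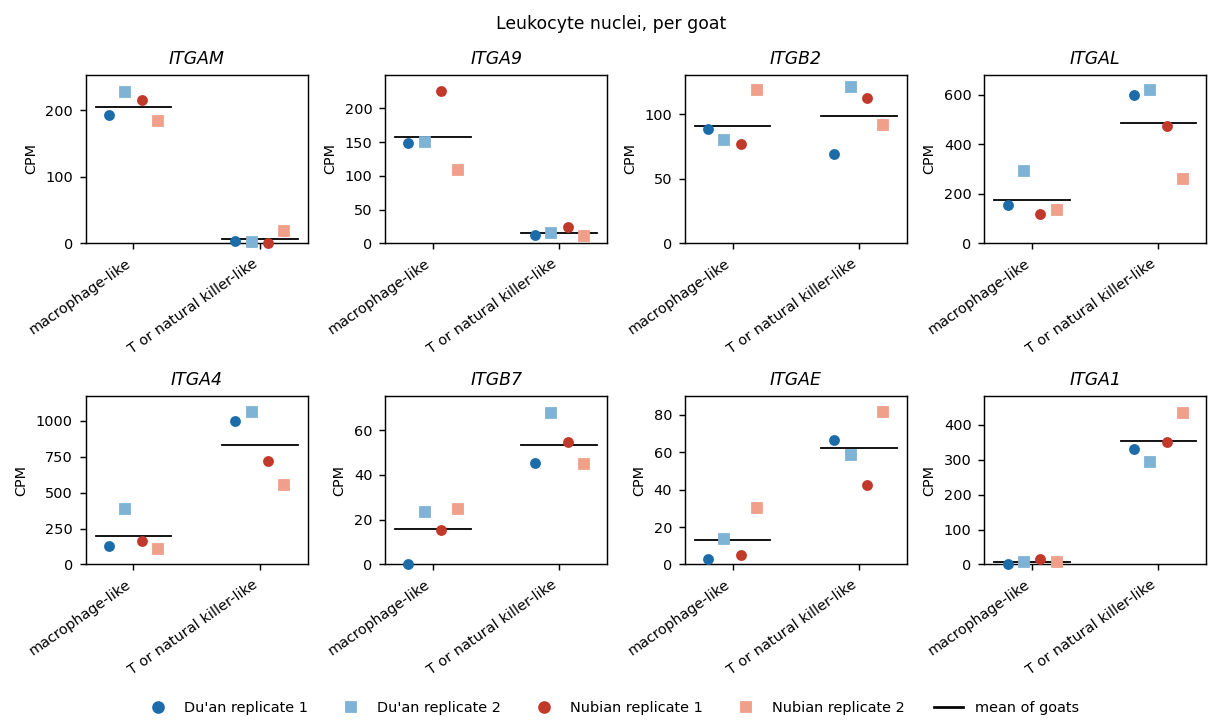
CPM of 8 integrin genes in macrophage-like and T or natural killer-like nuclei (points, 1 per goat; black line, mean of goats; linear axes from 0). ITGAM and ITGA9 stand higher in every macrophage-like sum, ITGA4, ITGB7, ITGAE and ITGA1 in every T or natural killer-like sum, and ITGB2 overlaps.

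Epithelial-like and ciliated-like nuclei were rare, at 267 and 153 nuclei, and came from 3 goats. They shared ITGB6 and LAMA3. LAMA3 is the alpha chain of the laminin that anchors epithelia, and ITGB6 is the epithelial partner of ITGAV. Epithelial-like nuclei had 9 members higher and 5 lower, against 14.0% and 7.75% of all genes (21.7% in either direction), and ciliated-like nuclei 6 and 5, against 14.3% and 6.34% (20.7% in either direction). Nubian replicate 1 gave 20 nuclei to each class, and its ciliated-like sum stood apart, with ciliated markers at 1985 CPM against 8461 and 9851 CPM in the other goats and mural markers at 8519 CPM against 3137 and 134 CPM. Epithelial-like nuclei held a median of 12 UMIs of progenitor markers against 6 of their own, and their part in the levels below was not tested.

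ITGB6 was at 64.0, 0 and 68.9 CPM in epithelial-like nuclei of Du'an replicate 2 and Nubian replicates 1 and 2 (log2 fold change 6.89 ± 0.496, adjusted p = 7.85e-14), and at 38.1, 0 and 16.7 CPM in ciliated-like nuclei (5.80 ± 0.708, adjusted p = 2.35e-08). No UMI was seen in Nubian replicate 1. DESeq2 did not call ITGB6 in either class (adjusted p = 0.0586 and 0.133). Without Nubian replicate 1 the edgeR values were 7.48 (adjusted p = 3.97e-11) and 6.27 (adjusted p = 1.80e-07).

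LAMA3 was at 192, 76.4 and 259 CPM in epithelial-like (log2 fold change 4.75 ± 0.385, adjusted p = 3.71e-14) and at 359, 26.3 and 387 CPM in ciliated-like nuclei (5.51 ± 0.379, adjusted p = 4.75e-17). Nubian replicate 1 had the lowest LAMA3 in both classes, and without it LAMA3 was called in both (log2 fold change 5.20 and 6.12). ITGA7 was at 13.3, 0 and 22.7 CPM in epithelial-like nuclei (3.40 ± 0.610, adjusted p = 2.19e-05), a call lost without Nubian replicate 2 (2.67, adjusted p = 0.116). ITGA3, a laminin receptor chain of epithelia, was at 15.9, 0 and 14.3 CPM in ciliated-like nuclei (1.92 ± 0.561, adjusted p = 0.00922), a call lost without Du'an replicate 2 (2.11, adjusted p = 0.0869) or Nubian replicate 2 (1.49, adjusted p = 0.275).

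The members not yet placed were lower in level or spread over classes. ITGA2 (61.1 CPM), ITGA3 (22.5 CPM) and LAMA5 (20.8 CPM) had their highest mean in epithelial-like nuclei, each overlapping with the next class. ITGB3 was highest in lymphatic endothelial-like nuclei (52.1 CPM, log2 fold change 3.27, adjusted p = 2.39e-10) and was called in 7 classes. LAMC1 was highest in the same class (403 CPM), in each of the 4 goats. ITGA2B, the alpha chain of the platelet fibrinogen receptor, was at 12.5 CPM in smooth muscle-like and 12.4 CPM in blood endothelial-like nuclei, and only the latter was called (0.92 ± 0.292, adjusted p = 0.0113). LAMB4 was highest in lymphatic endothelial-like nuclei (6.45 CPM). The untested ITGA10, a collagen receptor chain, had its highest mean in pericyte-like (8.63 CPM) and LAMB3 in theca-like nuclei (5.47 CPM).

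Chains known to pair were set side by side over the 15 classes, as Pearson's r of log2(mean CPM + 1), which describes class means that share libraries. ITGAL, ITGAX and ITGAM had r of 0.96, 0.93 and 0.79 with ITGB2. ITGA1 and ITGA5 had r of 0.82 and 0.80 with ITGB1, whereas ITGA6 had -0.59 with ITGB1 and -0.0059 with ITGB4, being highest in granulosa nuclei where both partners were low. Among laminins, LAMA4 had r of 0.76 with LAMC1 and 0.73 with LAMB1, and LAMB1 had 0.71 with LAMC1. Over all 630 pairs of members the median was 0.01 and the upper quartile 0.38. Among pairs of members with no protein-coding gene between them in the RefSeq annotation of ARS1.2, ITGAM and ITGAX had r of 0.86, ITGA1 and ITGA2 0.66, and LAMB1 and LAMB4 0.42.

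Other genes of matrix adhesion were counted in 6 lists, each fitted with all genes. Of 13 basement membrane partners, such as collagen IV chains and nidogens, 9 were higher and 0 lower in fibroblast-like nuclei (against 15.1% and 4.17% of all genes), 8 and 0 in smooth muscle-like (11.0% and 1.77%), 7 and 0 in pericyte-like (5.16% and 1.26%), 7 and 3 in blood endothelial-like (22.2% and 12.1%) and 7 and 2 in lymphatic endothelial-like nuclei (16.5% and 9.96%). Conversely, 12 were lower and 0 higher in both leukocyte classes (25.8% of all genes lower in macrophage-like and 27.2% in T or natural killer-like nuclei), 8 lower and 3 higher in cycling granulosa-like (17.5% and 21.4%) and 6 lower and 3 higher in cumulus-like nuclei (14.7% and 20.6%). NID1, a nidogen that links laminin to collagen IV, was at 72.7 to 150 CPM in fibroblast-like nuclei (log2 fold change 4.40 ± 0.299, adjusted p = 1.35e-16). COL4A3 and COL4A4, collagen IV chains, were at 540 to 1514 and 558 to 1230 CPM in cumulus-like nuclei (3.14 and 2.65, adjusted p = 2.13e-17 and 1.17e-14). COL4A2, another collagen IV chain, was at 437 to 968 CPM in pericyte-like nuclei (2.98, adjusted p = 9.83e-09). AGRN, the laminin-binding proteoglycan agrin, was at 34.5 to 51.0 CPM in epithelial-like nuclei (2.47, adjusted p = 5.78e-08).

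Of 7 genes listed for laminin receptors other than integrins, 5 were higher and 0 lower in progenitor-like nuclei (against 12.9% and 3.32% of all genes). The counts were 3 and 0 in theca-like (5.43% and 1.87%), 3 and 1 in fibroblast-like (15.1% and 4.17%) and 3 and 3 in mural-like nuclei (18.5% and 14.8%). In T or natural killer-like nuclei 0 were higher and 5 lower (29.5% and 27.2%). Of 9 tested integrin ligands other than laminin, 5 were higher and 0 lower in fibroblast-like (against 15.1% and 4.17% of all genes) and 4 and 0 in stromal-like nuclei (6.93% and 1.01%). In each endothelial class 4 were higher and 1 lower (22.2% and 12.1% in blood, 16.5% and 9.96% in lymphatic). In cumulus-like nuclei 0 were higher and 5 lower (20.6% and 14.7%), and in T or natural killer-like nuclei 0 and 6. MFGE8, a ligand of ITGAV integrins, was at 401 to 693 CPM in mural-like nuclei (log2 fold change 2.69, adjusted p = 4.28e-14), and NPNT, the ITGA8 ligand nephronectin, at 282 to 415 CPM in progenitor-like nuclei (2.18, adjusted p = 3.93e-12). FBN1, fibrillin, was at 155 to 931 CPM in stromal-like nuclei (2.45, adjusted p = 8.87e-08). THBS1, thrombospondin, was at 566 to 1062 CPM in smooth muscle-like (2.85, adjusted p = 2.38e-11) and 340 to 1230 CPM in stromal-like nuclei (2.32, adjusted p = 3.70e-07). ICAM1, the ligand of ITGB2 integrins, was at 37.9 to 88.0 CPM in epithelial-like nuclei (3.69, adjusted p = 1.19e-11).

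Of 15 genes that activate integrins or link them to actin, 9 were higher and 0 lower in fibroblast-like (against 15.1% and 4.17% of all genes), 7 and 0 in smooth muscle-like (11.0% and 1.77%), 7 and 2 in blood endothelial-like (22.2% and 12.1%) and 7 and 6 in macrophage-like nuclei (30.3% and 25.8%). In T or natural killer-like nuclei 3 were higher and 10 lower (29.5% and 27.2%), and in cumulus-like nuclei 2 and 6 (20.6% and 14.7%). FERMT3, the kindlin of blood cells, was at 34.8 to 53.6 CPM in macrophage-like (log2 fold change 5.57, adjusted p = 7.50e-20) and 18.2 to 46.6 CPM in T or natural killer-like nuclei (5.06, adjusted p = 5.62e-18). PARVG, the parvin of leukocytes, was at 24.4 to 54.5 CPM in the latter (6.79, adjusted p = 8.10e-17). LIMS2 was at 150 to 204 CPM in blood endothelial-like nuclei (4.77 ± 0.205, adjusted p = 6.35e-25) and PARVB at 17.7 to 50.2 CPM in lymphatic endothelial-like nuclei (3.97, adjusted p = 1.39e-15). Of 8 adhesion kinases and adaptors, 5 were higher and 1 lower in blood endothelial-like nuclei (against 22.2% and 12.1% of all genes). The counts were 4 and 1 in lymphatic endothelial-like (16.5% and 9.96%) and 4 and 2 in macrophage-like nuclei (30.3% and 25.8%). In cumulus-like (20.6% and 14.7%) and in cycling granulosa-like nuclei (21.4% and 17.5%) 0 were higher and 4 lower. Among 4 tested netrins and other laminin-related genes, 3 were higher and 1 lower in lymphatic endothelial-like nuclei (16.5% and 9.96%). In mural-like (18.5% and 14.8%), macrophage-like (30.3% and 25.8%) and T or natural killer-like nuclei (29.5% and 27.2%) 0 were higher, and 2, 4 and 3 were lower. NTN1, netrin, was at 504 to 2701 CPM in cycling granulosa-like nuclei (2.62, adjusted p = 3.40e-12). The remaining genes that the naming rule chose were NID1 in smooth muscle-like (log2 fold change 2.57), COL15A1 in fibroblast-like (3.67), COL4A4 in cycling granulosa-like (1.95), TNXB in lymphatic endothelial-like (4.96), PARVG in macrophage-like (6.54), EGFLAM in pericyte-like (3.24) and ciliated-like (1.99), ICAM1 in ciliated-like (1.99), NTNG1 in progenitor-like (2.10) and theca-like (2.52) and TLN2 in theca-like nuclei (1.66). Of these, ICAM1 in ciliated-like and NTNG1 in theca-like nuclei lost their call without Du'an replicate 2 (adjusted p = 0.281 and 0.302).

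Breeds were compared in the 11 classes with all 4 goats and over all kept nuclei, 2 goats against 2. edgeR called 0 members and 0 genes of any kind (0% of the genes tested) in each of these 12 comparisons. At an unadjusted p under 0.05 it gave 14 members over the 12 comparisons. There were 2 of 24 in progenitor-like, 2 of 21 in smooth muscle-like, 2 of 17 in T or natural killer-like and 2 of 15 in macrophage-like nuclei. Cumulus-like nuclei gave 0 of 23 and blood endothelial-like nuclei 0 of 22, and each other comparison gave 1. Genes of any kind at that limit ran from 120 of 4806 in stromal-like to 1248 of 8667 in T or natural killer-like nuclei. They were 231 of 11049 in progenitor-like, 240 of 9538 in smooth muscle-like, 342 of 12162 in cumulus-like and 460 of 8161 in macrophage-like nuclei. DESeq2 called 0 members. In simulated data of the same size, changed genes were drawn only from those at a mean of 10 CPM or more. In cumulus-like nuclei 88.8% of genes changed 4-fold and 11.7% of those changed 2-fold were recovered, with 15 false calls. Over all kept nuclei 0 of either were recovered. Several members tested in cumulus-like nuclei were below that level, such as ITGA1 at 4.28 to 6.75 CPM, and these shares do not cover them. The simulated cumulus-like data held 89 genes changed 4-fold and 111 changed 2-fold at once. With fewer changed genes the adjusted limit is stricter, so the shares can overstate recovery of a single member. Without the filter on low counts 1897 calls were made over genes of any kind, 5 of them of members. These were ITGB5 (log2 fold change, Nubian over Du'an, 1.29) and LAMC3 (-1.44) in cycling granulosa-like, ITGA8 in smooth muscle-like (-1.55) and stromal-like (-2.96), and ITGA2 in stromal-like nuclei (3.19). Leaving out a goat left its breed resting on 1, and calls from those fits are not counted here. The test of whether the breed difference varied over the 11 classes called 0 of 30 members and 0 of 12003 genes.

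Over all kept nuclei, 4 of 36 members (11.1%) did not overlap between the breeds, against 22.4% of genes with 40 UMIs or more. In these totals, more nuclei of a class and more RNA per nucleus cannot be told apart. ITGA2 was at 5.44 and 6.34 CPM in the Du'an and 7.66 and 27.9 CPM in the Nubian goats (log2 fold change 1.52 ± 0.624). LAMC3 was at 38.0 and 45.5 against 26.3 and 21.3 CPM (-0.83 ± 0.238), and ITGB8 at 194 and 172 against 231 and 235 CPM (0.31 ± 0.194). The adjusted p was 1.00 for each of the 3.

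Differences between goats of a breed were larger for several members. Over all kept nuclei, ITGA4 was at 127 CPM and ITGAL at 73.7 CPM in Du'an replicate 2, far above the other goats with at most 25.3 and 13.6 CPM, and the T or natural killer-like nuclei numbered 102, 1508, 342 and 291. ITGB5 was at 176, 423, 730 and 237 CPM, in the order of the mural-like nuclei. LAMA3 was at 4.83, 7.60, 3.80 and 23.7 CPM and ITGB6 at 0.537, 0.870, 0.183 and 3.96 CPM, both highest in Nubian replicate 2, which held 172 of the 267 epithelial-like nuclei. Within classes, the share of members that did not overlap between the breeds was 44.4% in fibroblast-like (against 31.6% of genes), 42.9% in smooth muscle-like (29.5%), 34.8% in cumulus-like (29.5%), 17.6% in T or natural killer-like (46.7%) and 8.33% in progenitor-like nuclei (26.8%). In the other 6 classes it lay between 15.4% and 35.3%, against 26.9% to 34.0% of genes.

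**Figure D5:**
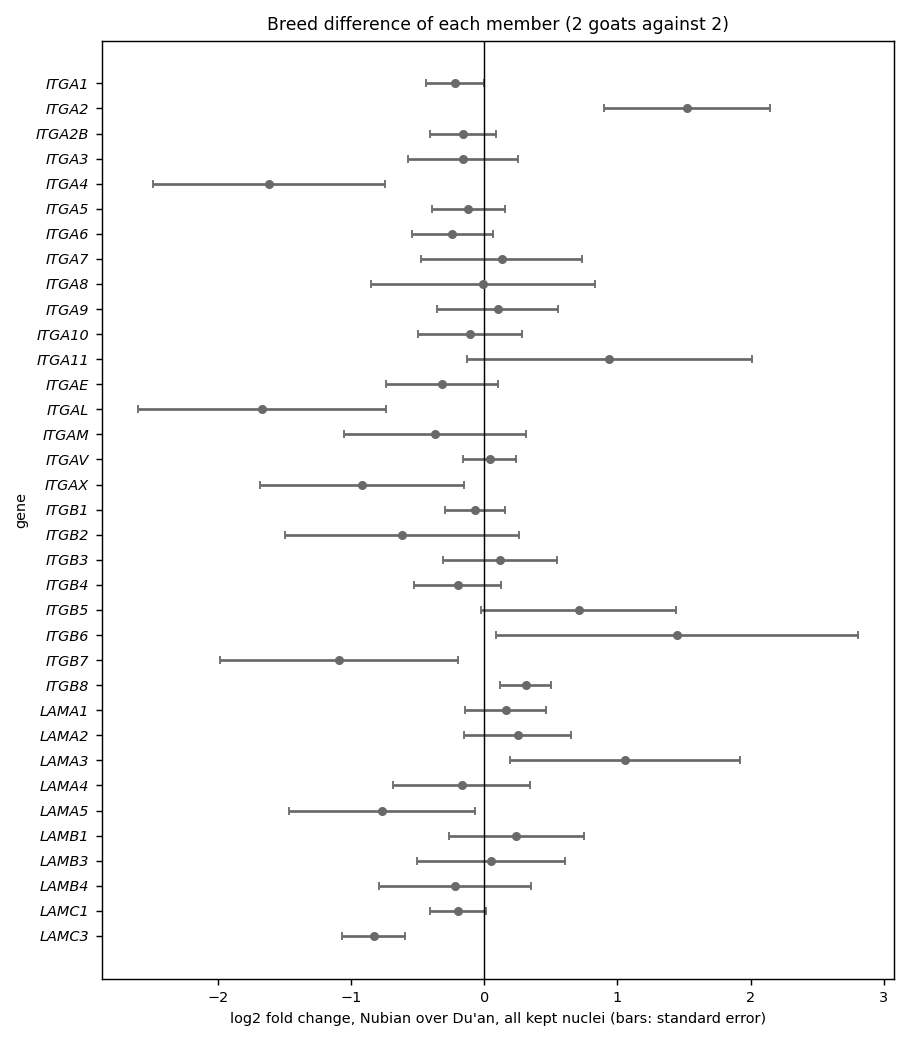
Log2 fold change of each gene shown between breeds over all kept nuclei (points, with bars for the standard error derived from edgeR's F statistic, positive values being higher in the Nubian goats). No gene was called, and ITGA2 at 1.52 and LAMC3 at -0.83 are among those whose goats did not overlap.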

How the data were processed

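The authors deposited, for every goat, raw UMI counts of genes by nuclei from Cell Ranger 5.0.0 (a matrix header names another version), filtered to nuclei and not normalized. They also deposited tables of their own comparisons (Seurat marker genes of granulosa subtypes and follicle stages, with fold changes and p-values), which were not used. The genome build is given by number only and no coordinates are printed. Members and lists were chosen with earlier results of these data known.

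After the study's filters, nuclei had UMI and gene counts within 2 SD of the library mean and at most 20% mitochondrial UMIs. No doublet caller was run; nuclei with markers of 2 classes were left out. A nucleus entered a class with at least 3 UMIs from 2 markers and a high enough ratio of observed to expected marker UMIs. That ratio was at least 4 (1 for granulosa, 2 for its mural and progenitor subtypes). Outside the granulosa subtypes it also had to be 2 times that of the next such list, with a granulosa ratio under 1. A granulosa subtype required that no list of those other classes passed. Cumulus-like nuclei had mural and progenitor ratios under 1. These limits were set with the data in hand. Near such a limit (within 1.25 times) lay 0 to 34.8% of a class. Class by likelihood over genes other than the members was the same for 82.7% of gated nuclei. Its profiles came from those same nuclei and kept the gate's markers, so this share is no independent check of the classes.

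UMIs were summed per goat and class (at least 20 nuclei and 3 goats) and tested with edgeR 4.0.16 (TMM, quasi-likelihood) in R 4.3.3; DESeq2 1.42.0 was an alternative. On simulated counts, changed genes were drawn from those at a mean of 10 CPM or more. Of these, 97.2% of 4-fold and 63.7% of 2-fold changes were recovered in blood endothelial-like nuclei, and 98.9% and 80.0% in mural-like nuclei against other subtypes. Shares at 1000 UMIs leave out shallower nuclei and are expected values under thinning. In the class and subtype fits goats were blocked, so p-values rest on how differences between classes varied over goats, with the spread pooled over classes. Between breeds they rest on the spread between goats of a breed. Standard errors are the absolute log2 fold change divided by the square root of edgeR's F statistic. Named members were, per class, up to 4 called higher with the largest log2 fold change and a mean of 10 CPM or more, by the same rule in each direction of the pairs of classes, between breeds every called member or else up to 3 over all kept nuclei without overlap, and up to 2 list genes per class. Values of 2 genes are not reported here, though counts of genes include them. Missing marker symbols were resolved with RefSeq names (ARS1.2). Python 3.11.15 was used.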

Additional observations from a re-analysis of the deposited data

Results flagged for a closer look

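In 9 of 115 sets of 4 goats checked (7.83%), 1 goat lay farther from the rest than Dixon's limit at the 95% level allows, which chance gives in about 1 in 20 sets. Over all kept nuclei these were ITGA4 (127 CPM) and ITGAL (73.7 CPM) in Du'an replicate 2, where the other goats had at most 25.3 and 13.6 CPM, and ITGA2 (27.9 CPM) and ITGA10 (1.58 CPM) in Nubian replicate 2. Within classes they were ITGA1 in blood endothelial-like nuclei of Nubian replicate 1 (365 CPM, others 578 to 620 CPM) and LAMC1 in cumulus-like nuclei of the same goat (216 CPM, others 166 to 172 CPM). The other genes flagged were PARVG in macrophage-like nuclei (61.1 CPM) and NTNG1 in progenitor-like nuclei (58.3 CPM) of Nubian replicate 2, and THBS1 in stromal-like nuclei of Du'an replicate 1 (1230 CPM).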

How the results depend on the processing

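Of 978 values of named members across classes under 11 alternatives, 924 kept their side of the limit, 52 lost their call and 2 changed sign, ITGA7 in smooth muscle-like (-0.86) and ITGAV in theca-like nuclei (-0.34) when classes were assigned by likelihood; the cause was not tested. The members called across classes numbered 136 higher (122 to 142 in the alternatives, 118 to 124 without 1 goat) and 93 lower (82 to 127, and 68 to 80). Across granulosa subtypes 23 were higher (18 to 22 without 1 goat) and 15 lower (8 to 12 without 1 goat, 9 with no goat block). Without 1 goat the calls were 6 to 8 between endothelial and 7 to 11 between leukocyte classes. Between smooth muscle-like and pericyte-like nuclei the 1 call became 2 with DESeq2, RLE size factors or no low-count filter and 13 with classes by likelihood. Between breeds the 0 members became 5 without the low-count filter and 0 to 4 without 1 goat, and the 0 genes of any kind became 393 with DESeq2, 1897 without that filter, 295 with no filter on nuclei, 3 with classes by likelihood and 173 to 606 without 1 goat. Replicate numbers do not pair goats of different breeds: deviations of same-numbered goats correlated at -0.24 to 0.14 over the classes, and with the replicate block 0 members and 160 genes were called. Depth, 2 goats a breed and classes of few nuclei limit what can be seen.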
